A study of Homo sapiens with 4 samples.

Results

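ATF4, its bZIP (basic leucine zipper) partners and the stress regulators around it were followed across an array experiment on MED1, one of the Mediator proteins through which DNA-bound regulators reach RNA polymerase II. The 9 genes were ATF4, DDIT3 (which encodes CHOP), ATF5, CEBPA, CEBPB, CEBPD, CEBPG, NUPR1 and TRIB3. A row of the value table was taken where the platform annotation named one of these genes alone, which gave 12 of the 22215 probe sets that are not Affymetrix controls, and 9 of the 11963 genes so named. The genes were chosen by name from the ATF4 pathway with the differences between MED1 and empty vector arrays already known, so those differences are given here as a description and support nothing about how the genes were picked.

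Each group held 2 samples. MED1 samples were LNCaP cells transiently transfected, with Lipofectamine, with a vector expressing MED1, and empty vector samples were LNCaP cells given the empty vector in the same way. LNCaP is an established line from a human prostate cancer that responds to androgen, and RNA was taken 24 hours after transfection. The labels name neither the promoter of the vector nor the share of cells that took it up, and they do not say whether the duplicates were separate cultures, so the spread behind each p-value may be technical. One label of the empty vector samples mentions the MED1 vector; their titles, source names and transfection labels were followed.

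ATF4 is a transcription factor made in larger amounts when the kinases that phosphorylate eIF2 slow general protein synthesis, for example during amino acid shortage or stress in the endoplasmic reticulum (ER). It binds DNA as a pair with another bZIP protein, often of the C/EBP family, at composite sites in genes for amino acid transport and synthesis. DDIT3, CEBPB, NUPR1 and TRIB3 are among the genes that are induced with it, and ATF4 is controlled at translation as well as in the amount of its RNA, which alone was measured here.

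The promoter letters of RefSeq (build GRCh38.p14) were read for 7 of the 9 genes, in 15 windows. The core of the C/EBP-ATF composite element, spelled TGATGNAA and searched on both strands of the 250 bases before each start, was found in the windows of 1 of the 7 genes, CEBPG. Over all 27305 genes with a window, 3.89% held it, and in the list of other ATF4 targets used below 9 of 37 genes did (24.3%). Genes differ in their number of windows. By window, 1 of the 15 held it, against 3.14% of all 35116 and 9 of 53 (17.0%) of the list. The CEBPG match ended 35 bases before the more downstream of the gene's 2 listed starts, at chr19:33374071-33374078 on the plus strand, and is shown with its surroundings (chr19:33374060-33374089), the match in capitals.

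CEBPG site: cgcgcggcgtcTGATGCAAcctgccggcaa

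For ATF4 and the called genes with an entry, the 100 bases before the most upstream listed start are shown 5′ to 3′, because the values below turn on these genes. No base is in capitals, since none of the 3 motifs searched lies in these stretches.

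ATF4 (plus strand, chr22:39520459-39520558): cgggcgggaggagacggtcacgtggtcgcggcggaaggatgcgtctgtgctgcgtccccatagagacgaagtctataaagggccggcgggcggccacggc

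DDIT3 (minus strand, chr12:57520518-57520617): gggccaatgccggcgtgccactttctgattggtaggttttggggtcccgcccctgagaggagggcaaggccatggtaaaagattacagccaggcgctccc

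CEBPB (plus strand, chr20:50190483-50190582): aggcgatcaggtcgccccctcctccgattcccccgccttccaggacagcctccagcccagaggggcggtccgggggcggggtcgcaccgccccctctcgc

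TRIB3 (plus strand, chr20:381195-381294): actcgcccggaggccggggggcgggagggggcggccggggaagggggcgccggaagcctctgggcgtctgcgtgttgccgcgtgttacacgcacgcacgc

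CEBPG (plus strand, chr19:33373609-33373708): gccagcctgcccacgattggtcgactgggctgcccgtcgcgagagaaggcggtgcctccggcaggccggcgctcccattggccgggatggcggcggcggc

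The other motifs searched were the C/EBP site TTGCNNAA and the cyclic AMP response element TGACGTCA. The first was found in 1 of the 7 genes, ATF5, against 11.0% of all genes, and the second in 0 of 7, against 2.03% of all genes. No 8 letters can match 2 of the 3 motifs, though matches may overlap in part, and a match or its absence in a window is a description of the letters alone.

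The arrays were first compared with each other. The values are MAS5 signals, brightness on a linear scale. Their mean over probe sets, with the extreme 2% at each end left out, was 500.2 on every array. So equal a mean is a mark of scaling to a common value, and it does not show that the arrays were alike. The median signal was 78.4 and 77.0 on the MED1 arrays, against 79.6 and 82.7 on the empty vector arrays. Pearson's r over 13329 probe sets was 0.992 within the MED1 pair, 0.990 within the empty vector pair and 0.986 to 0.991 between groups. The MED1 transcript read 559 and 807 on the MED1 arrays, against 292 and 315 on the empty vector arrays, by the probe set that passed the test (limma, Benjamini-Hochberg adjusted p = 0.032), and 1172 and 1074 against 1097 and 1011 by a second one that did not. Of 8 LNCaP luminal genes on the array, 8 had a mean signal above 31, the level used as a filter on dim probe sets, while 0 of 3 leukocyte, 1 of 3 basal, 1 of 3 endothelial and 2 of 5 fibroblast genes did. Summed, the luminal signals were 22311 to 23703 on the MED1 arrays, against 23158 to 25427 on the empty vector arrays. Actin control probe sets gave a 3′ over 5′ ratio of 9.40 and 9.32 on the MED1 arrays, against 8.14 and 9.45 on the empty vector arrays. The same ratio of the GAPDH controls was 1.16 and 1.24 on the MED1 arrays, against 1.16 and 1.27 on the empty vector arrays. The part of RNA quality in the results was not tested. Vector and group divide the arrays alike, so MED1 and any other difference between the plasmid preparations cannot be told apart.

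Each gene was compared between the groups on the scale of log2(signal + 16), in 1 limma fit over the 13329 probe sets with a mean signal of at least 31. That scale understates the change of weakly expressed genes. A probe set is said to be called where its Benjamini-Hochberg adjusted p over all of these was under 0.05. Of the 12 probe sets of the 9 genes, 10 entered the fit, all with a mean above 31 in both groups. Among them 5 were called lower in the MED1 samples, where 0.188% of all tested probe sets were, and 0 were called higher, where 0.105% were. The 5 named DDIT3, NUPR1, CEBPB, TRIB3 and CEBPG. None of the 5 was called when dim probe sets were kept in the fit, or when the variance was modelled without its trend with intensity. Over all 12, the median log2 fold change was -0.50, against -0.02 over the 22215 probe sets. Both MED1 arrays read below both empty vector arrays on 8 of the 12, against 21.8% of all probe sets, and above both on 2, against 15.7%. Since the members were picked with this contrast in view, nothing is read from these counts. In RNA from a whole culture, fewer expressing cells and less RNA per cell cannot be told apart.

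**Figure D1:**
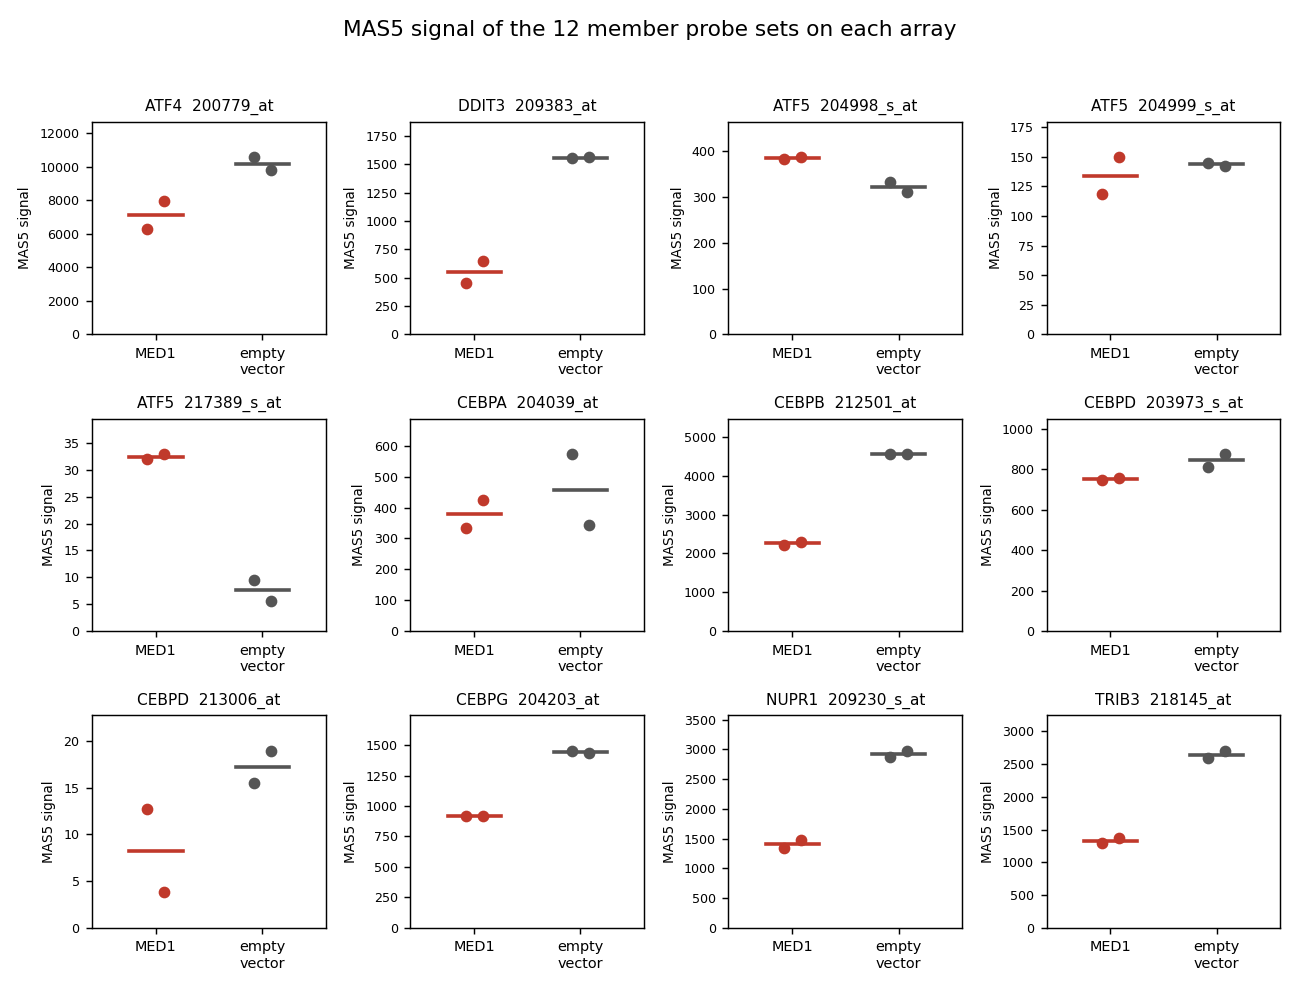
MAS5 signal (vertical axes, linear, from 0) of the 12 probe sets, 1 panel each, with the 2 MED1 arrays at left in red and the 2 empty vector arrays at right in grey; bars mark group means. DDIT3 reads 450 and 648 on the MED1 arrays against 1559 and 1564, while the CEBPA arrays of the groups interleave.

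ATF4, the regulator the pathway is named for, had signals of 6279 and 7944 in the MED1 samples, against 10578 and 9798 in the empty vector samples. The groups did not overlap, but the MED1 arrays differed from each other by 1.27 times, and the nearer MED1 array lay at 0.811 times the lower empty vector array. The log2 fold change was -0.53 ± 0.13 (SE, n = 2 each), and ATF4 was not called. It was called with the replicate number as a block and without MED1 replicate 2, where the value was -0.70. A probe set is 1 measure of the transcript, and the protein was not measured.

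DDIT3 encodes CHOP, a bZIP protein that pairs with C/EBP proteins and promotes death under lasting ER stress. It read 450 and 648 in the MED1 samples, against 1559 and 1564 in the empty vector samples. The empty vector arrays nearly coincided, and the higher MED1 array still lay at 0.416 times the lower of them. DDIT3 fell by 1.50 ± 0.15 on the log2 scale, to 35.2% of the empty vector mean (549 ± 140 with MED1, against 1561 ± 3.17 with empty vector; SD, n = 2 each). Ordered from the most negative log2 fold change, it was number 3 of the 13329 probe sets.

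DDIT3 lay further down than ATF4 on each MED1 array. With each array set against the empty vector mean of the same probe set, the change of DDIT3 minus that of ATF4 was -1.06 on MED1 replicate 1 and -0.89 on MED1 replicate 2, on the log2 scale. The remaining called genes lay nearer to ATF4. NUPR1 minus ATF4 was -0.41 and -0.63, CEBPB minus ATF4 -0.34 and -0.62, and TRIB3 minus ATF4 -0.33 and -0.59 on the same 2 arrays. CEBPG minus ATF4 was 0.05 and -0.29, on either side of 0. These differences compare changes, not levels, because the brightness of 2 probe sets has no common scale.

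ATF5, a bZIP relative of ATF4 that is also translated more under eIF2 phosphorylation, had 3 probe sets that disagreed. The brightest read 384 and 387 in the MED1 samples, against 333 and 311 in the empty vector samples, a log2 fold change of 0.25 ± 0.12 with no overlap between groups and no call. The second read 118 and 149 in the MED1 samples, against 145 and 142 in the empty vector samples, so the MED1 arrays lay on either side of the empty vector ones (-0.10 ± 0.17). The third was below the filter and entered no test, at 32.0 and 33.0 in the MED1 samples against 9.45 and 5.68 in the empty vector samples. Its log2 fold change of 1.05 rests on signals near or under the filter level, where no detection calls were used. Of the 9 genes, ATF5 alone had a brightest probe set with a positive value, in these 4 arrays.

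The C/EBP family bind DNA as pairs with each other, with ATF4 or with CHOP. CEBPB, which controls inflammatory, metabolic and stress genes, read 2217 and 2302 in the MED1 samples, against 4561 and 4553 in the empty vector samples. Both groups were tight, and the ratio of any MED1 array to any empty vector array lay between 0.486 and 0.506. CEBPB fell by 1.01 ± 0.09 on the log2 scale, to 49.6% of the empty vector mean.

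CEBPG, a short C/EBP protein that pairs with ATF4 and lacks a strong activating region of its own, read 915 and 916 in the MED1 samples, against 1454 and 1438 in the empty vector samples. The groups did not overlap, and the MED1 arrays nearly coincided. CEBPG fell by 0.65 ± 0.09 on the log2 scale, to 63.3% of the empty vector mean. This call did not hold without empty vector replicate 1 or without empty vector replicate 2, although the value then stayed at -0.64 and -0.66.

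CEBPA and CEBPD were not called. CEBPA, a factor of growth arrest and differentiation, read 333 and 424 in the MED1 samples, against 574 and 343 in the empty vector samples, and the groups overlapped (-0.23 ± 0.22). Its empty vector arrays differed most among the 10 tested probe sets, and without empty vector replicate 1 the sign turned, to 0.13. CEBPD, induced early in inflammation and stress, read 750 and 760 in the MED1 samples, against 813 and 877 in the empty vector samples, with no overlap but a small difference (-0.16 ± 0.10). Its second probe set was below the filter, at 12.7 and 3.79 in the MED1 samples against 15.5 and 19.0 in the empty vector samples.

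NUPR1, a small chromatin-associated cofactor induced by many stresses, read 1345 and 1469 in the MED1 samples, against 2869 and 2978 in the empty vector samples. The groups lay far apart, with every ratio of a MED1 to an empty vector array between 0.452 and 0.512. NUPR1 fell by 1.05 ± 0.09 on the log2 scale, to 48.1% of the empty vector mean.

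TRIB3, a pseudokinase that binds ATF4 and CHOP and dampens their activity, read 1291 and 1366 in the MED1 samples, against 2586 and 2705 in the empty vector samples. The groups did not overlap, and the array ratios lay between 0.477 and 0.528. TRIB3 fell by 0.99 ± 0.09 on the log2 scale, to 50.2% of the empty vector mean. In the order from the most negative log2 fold change, NUPR1, CEBPB and TRIB3 stood at numbers 18, 22 and 26 of 13329, CEBPG at 138 and ATF4 at 273. Their log2 fold changes of -1.05, -1.01 and -0.99 differed from each other by less than their standard errors.

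**Figure D2:**
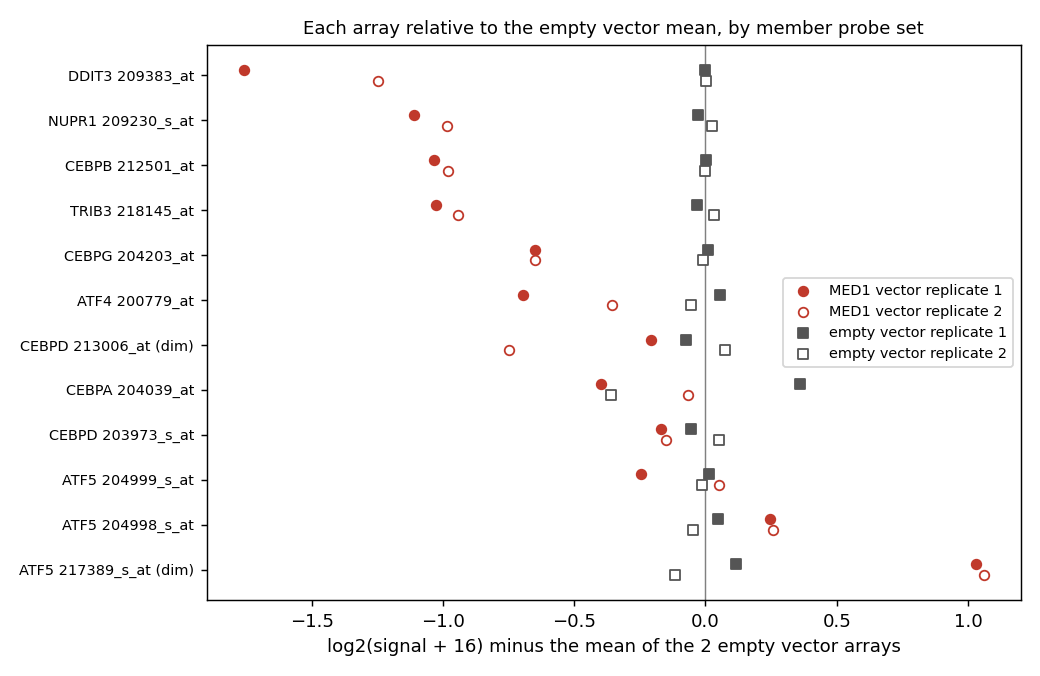
Log2(signal + 16) of each array minus the mean of the 2 empty vector arrays (horizontal axis), for the 12 probe sets from the most negative to the most positive mean change; red circles are MED1 arrays, grey squares empty vector arrays, filled for replicate 1 and open for replicate 2. DDIT3 lies at -1.76 and -1.25 on the MED1 arrays, ATF4 at -0.70 and -0.36, and the brightest ATF5 probe set at 0.25 and 0.26.

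The 2 MED1 arrays differed clearly on some of these probe sets. On 11 of the 12 probe sets MED1 replicate 1 read lower than MED1 replicate 2, where over all 22215 probe sets 49.7% did. The 11 include CEBPG, at 915.3 and 915.5, and 2 ATF5 probe sets that read higher in the MED1 samples than with empty vector. By 1 probe set per gene, MED1 replicate 1 also read lower for 7 of 8 LNCaP luminal genes and 27 of 40 ATF4 targets listed below. It did so for 16 of 37 other bZIP genes listed below. The gap between the MED1 arrays was 1.44 times for DDIT3, 1.27 times for CEBPA, 1.27 times for ATF4 and 1.26 times for the second ATF5 probe set. It was 1.09 times or less for NUPR1, TRIB3, CEBPB, CEBPG and the brightest ATF5 and CEBPD probe sets. The widest gap went the other way, on the second CEBPD probe set, where MED1 replicate 2 lay at 0.297 times MED1 replicate 1, with both signals below the filter level. The empty vector arrays showed no such side, with replicate 2 above replicate 1 on 5 of the 12, against 54.8% of all. The MED1 probe set that passed the test read lower on MED1 replicate 1, at 559 against 807, while the other MED1 probe set read higher there, at 1172 against 1074. Whether the amount of MED1 transcript moves with these genes was not tested, since each group holds 2 arrays.

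Likeness was measured as the Euclidean distance between log2 profiles over the 4 arrays, each array set against the empty vector mean, as a description. Outside the 9 genes, the gene nearest to DDIT3 was CHAC1, which degrades glutathione, at a distance of 0.0913. CHAC1 read 97.6 and 136 in the MED1 samples, against 360 and 374 in the empty vector samples, so it shared the lower value of MED1 replicate 1. The next 4 genes lay at 0.510 to 0.599 and included SLC7A11, the cystine transporter, CLSTN3, a calsyntenin, and SLC1A4, a neutral amino acid transporter. The SLC7A11 probe set here was not its brightest, and read 469 and 485 in the MED1 samples, against 1808 and 1448 in the empty vector samples. CLSTN3 and SLC1A4 were dim, at 16.8 to 104 over the 4 arrays, and neither was called. The nearest members were NUPR1 (0.701), CEBPB (0.773) and TRIB3 (0.795).

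Nearest to ATF4 were CNPPD1 (0.0308), NBR1 (0.0538), CEP97 (0.0586), SLC11A1 (0.0636) and ATF3 (0.0747). The first 4 had signals of 25.9 to 147 over the arrays, and none of the 5 was called. ATF3, a stress-induced bZIP repressor, read 555 and 703 in the MED1 samples, against 928 and 917 in the empty vector samples. Among the members CEBPG was nearest to ATF4, at 0.304, which was place 181 among the tested probe sets that name 1 gene. The tested probe sets of the other members stood at places from 2039 (CEBPD) to 11446 (DDIT3).

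Other genes of the pathway were taken from lists, with the brightest tested probe set standing for each gene. Over the 7957 genes so represented, 0.226% were called lower, 0.101% were called higher and the median log2 fold change was -0.02. In a list of 44 other ATF4 targets, 40 genes were on the array and 38 were tested, of which 7 fell and 0 rose. Their log2 fold changes had a median of -0.40, with 34 of the 38 below 0, where 4338 of all 7957 genes were. The list was also drawn up with results of these arrays known. The count was 20 with the replicate number as a block, 15 without MED1 replicate 2, 4 without empty vector replicate 1 and 3 without empty vector replicate 2. It was 0 when dim probe sets were kept in the limma fit and 0 without the variance trend.

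CHAC1 fell by 1.54 ± 0.17 on the log2 scale (limma, Benjamini-Hochberg adjusted p = 0.00525), lower in 2 of 2 MED1 samples. SLC7A11 read 616 and 559 in the MED1 samples, against 1996 and 1425 in the empty vector samples, and fell by 1.50 ± 0.15 (adjusted p = 0.00322). A second SLC7A11 probe set, the one near DDIT3 in profile, was called at -1.73 ± 0.12, and another, dimmer, was not called at -0.29 ± 0.24. Further called genes were STC2, a secreted glycoprotein (-1.001 ± 0.11), CARS1, the cysteinyl-tRNA synthetase (-0.84 ± 0.12), DDIT4, an inhibitor of mTORC1 (-0.72 ± 0.09), and PCK2, the mitochondrial enzyme that makes phosphoenolpyruvate (-0.67 ± 0.09), with adjusted p from 0.00525 to 0.0219. The seventh was ASNS, asparagine synthetase, named after its values were seen, at -0.58 ± 0.09. The value nearest to 0 was that of KLHL24, 0.02 ± 0.15, whose other 2 probe sets had -0.74 and -0.55, not called.

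**Figure D3:**
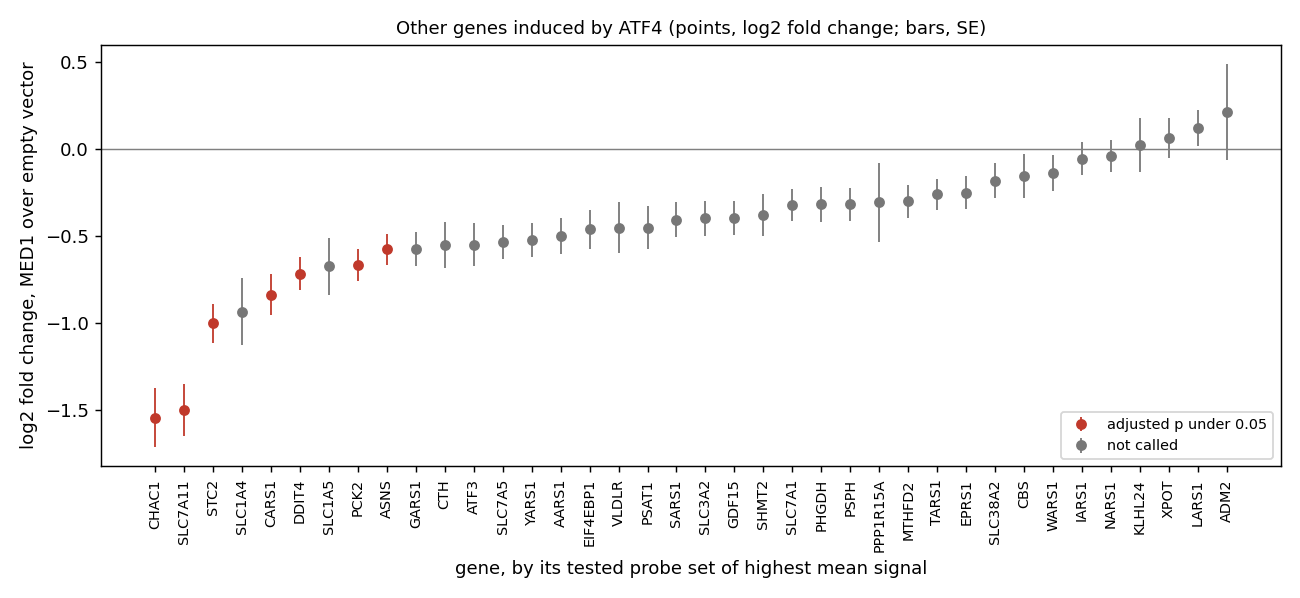
Log2 fold change, MED1 over empty vector (vertical axis; bars are SE from limma), of the 38 tested genes of the ATF4 target list, ordered by value; red marks the 7 genes with an adjusted p under 0.05. CHAC1 (-1.54) and SLC7A11 (-1.50) are lowest, and 34 of the 38 values are below 0.

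The further lists of genes around ATF4 held no called gene in the limma fit, which depends on how genes were divided between lists. TRIB3 stood with the members and CHAC1 with the ATF4 targets, and neither was in the CHOP list. In the same fit, an unadjusted p under 0.05 was found for 0 of 4 CHOP targets, 2 of 11 eIF2 genes and 3 of 26 other bZIP genes. It was found for 1 of 2 TRIB3 relatives and 4 of 18 ER chaperone genes, against 783 of all 7957 genes. Of CHOP targets the median log2 fold change was 0.05. The list does not separate genes that CHOP raises from genes that it lowers, so this median gives no direction of a CHOP response. TNFRSF10B, the death receptor DR5, had 0.21 ± 0.10. ERO1A and BCL2, named after their values were seen, had 0.13 ± 0.12 and -0.04 ± 0.23. BCL2L11, which encodes the cell death protein BIM, had -0.03 ± 0.24. Of the eIF2 kinases, subunits and exchange factors the median was 0.03. The smallest difference was that of EIF2S1, the subunit that is phosphorylated (0.00086), and the largest that of EIF2AK2, the kinase PKR (0.33 ± 0.12, with 0.07 by its second probe set). Of other bZIP genes the median was -0.04, and ATF6 had 0.94 ± 0.50 with overlapping groups, 117 and 229 in the MED1 samples against 163 and 33.7 in the empty vector samples, and -0.10 by its second probe set. HLF, a circadian bZIP factor, had 0.0026. Of the 26 other bZIP genes, 14 had values below 0. The 3 with an unadjusted p under 0.05 (limma) all read lower in the MED1 samples, with no overlap between groups and no call. They were ATF3 (-0.55 ± 0.12), and NFIL3 (-0.39 ± 0.11) and XBP1 (-0.33 ± 0.12), the last 2 named after their values were seen.

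TRIB1 and TRIB2, pseudokinases related to TRIB3, had 0.27 ± 0.10 and -0.17 ± 0.12, where TRIB3 had -0.99 ± 0.09. The list of ER chaperones and other genes of the unfolded protein response holds many, though not only, genes that its ATF6 and XBP1 arms control. It had a median of 0.06, and 5 of 18 values were below 0, where 4338 of all 7957 genes were. HSPA5, the main ER chaperone BiP, named after its values were seen, read 5319 and 5182 in the MED1 samples, against 4136 and 4157 in the empty vector samples, and was not called (0.34 ± 0.09). HERPUD1, a membrane protein of ER-associated degradation, read 2575 and 2768 in the MED1 samples, against 3976 and 3854 in the empty vector samples, and missed the threshold (-0.55 ± 0.09, limma, Benjamini-Hochberg adjusted p = 0.0584). SEL1L, a partner of the same degradation route, had 0.00036 ± 0.12. No difference between these lists was tested.

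**Figure D4:**
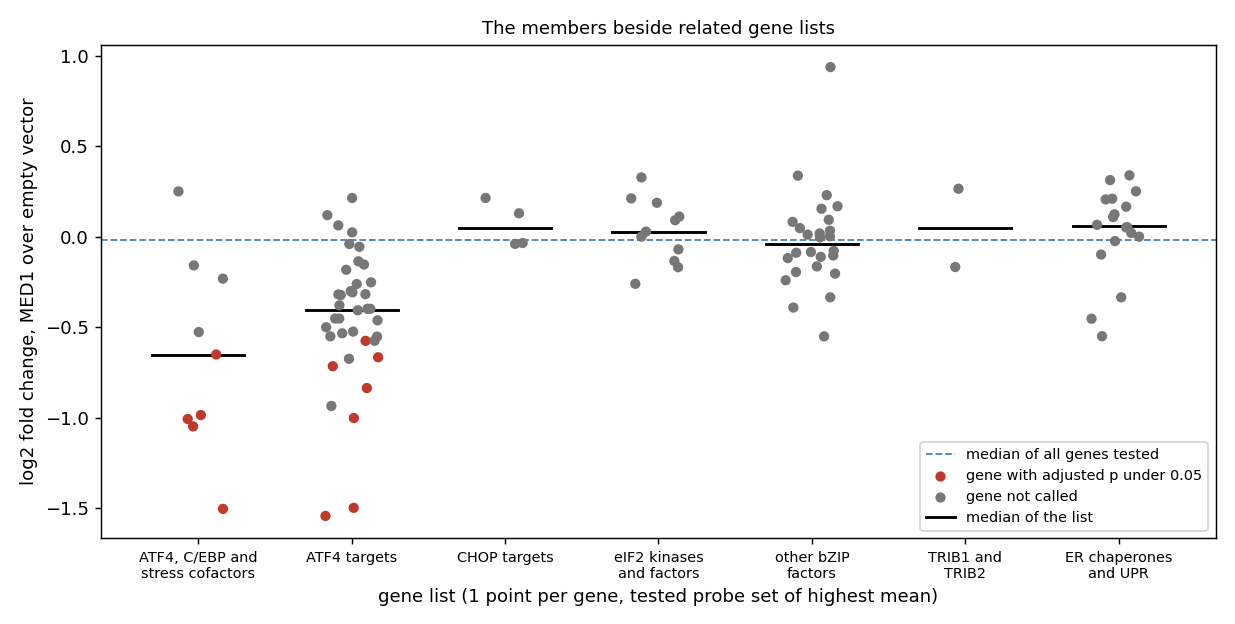
Log2 fold change, MED1 over empty vector (vertical axis), with 1 point for each gene (its brightest tested probe set), for the 9 genes and 6 related lists; red points are called lower, black bars are list medians and the dashed line is the median of all genes tested. The 9 genes have a median of -0.65 and the ATF4 targets -0.40, while the medians of the other lists lie near 0. ATF3 is drawn among ATF4 targets and other bZIP factors, and XBP1 among bZIP and ER genes. JDP2 is named in the same lists as ATF3 but has no point.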

How the data were processed

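The authors deposited signal intensities, 1 for each probe set on each array. MAS5 is named, without a version, per the submitters' processing notes; a common trimmed mean shows in the values. Further steps by the authors: not given in the sources used here. Of 22277 probe sets, 62 controls were left out, and 19064 of the rest named 1 gene, 1043 several and 2108 none. Symbols were updated through RefSeq (GRCh38.p14) for 19052.

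The 4 arrays were grouped by title and transfection label. Signals were taken as log2(value + 16), and probe sets whose mean on that scale was below the 40th percentile, or 31.0 in signal, were set aside (8886). R 4.3.3 with limma 3.58.1 gave the contrast of MED1 over empty vector (lmFit, eBayes with an intensity trend; 7.3 prior and 2 residual degrees of freedom) and Benjamini-Hochberg adjustment at 0.05. The fit was tested on simulated data in which all probe sets had the same spread, so the variance trend was not tested there. Arrays have no read depth, and their number limits precision; an exact permutation test of 2 against 2 arrays cannot give a p under 0.333. Alternatives were other offsets (1 and 64), centring, quantile normalization, filters (none and the 60th percentile), variance models, the replicate number as a block, a threshold of 0.1 and each array left out in turn.

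The members, the lists and the alternatives were chosen with earlier results of these data known. Named genes were all members, MED1, up to 6 called genes of a list by size with its largest and smallest difference, and the 5 genes nearest in profile to DDIT3 (1 of them, with dim signals, is not reported here) and to ATF4; others are identified as named after their values were seen. Promoter windows came from RefSeq, and figures were drawn with matplotlib 3.10.9.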

Additional observations from a re-analysis of the deposited data

How the results depend on the processing

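The count of called probe sets (39) was 0 when dim probe sets were kept (limma; 1680 at an unadjusted p under 0.05), 5 without the variance trend, 62 at a threshold of 0.1, 239 with the replicate block and 25 to 216 with 1 array left out. The members' count of 5 called lower was 0 with no filter and 0 without the trend, where 1137 of all probe sets had an unadjusted p under 0.05, and 4 to 6 in the other settings; the 5 genes called were the same in the other settings, apart from CEBPG, lost without either empty vector array, and ATF4, gained with the replicate block and without MED1 replicate 2. Of the ATF4 targets, 7 genes called lower became 0 with no filter, 0 without the trend, 20 with the replicate block and 3 to 15 with 1 array left out. With no filter the fit covered 22215 probe sets; otherwise the cause was not tested. The members' median of -0.50 was -0.37 with an offset of 64, which shrinks differences by construction. Signs turned, with no call, for the second ATF5 probe set (0.053 without MED1 replicate 1; -0.25 to 0.053 with 1 array left out) and CEBPA (0.13 without empty vector replicate 1; -0.59 to 0.13). Deviations of same-numbered arrays correlated at 0.121 over 2 pairs, too few to pair the samples. Where 1 array was left out, the lone sample was assumed to vary like the other group. Without detection calls, changes at signals near the filter level have no known background.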
